A study of Homo sapiens with 5 samples.

Results

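The human SWI/SNF chromatin remodelling complex comes in 3 forms that differ in their accessory subunits. The genes of 10 such subunits were examined here for peaks of BRG1 and ACTL6A, which belong to the complex, and of the transcription factor NRF2. The genes are ARID1A, ARID1B and DPF2 of canonical BAF, ARID2, PBRM1, BRD7 and PHF10 of PBAF, BRD9 and BICRA of non-canonical BAF (ncBAF), and SS18, which is shared by BAF and ncBAF. They are 10 of the 19689 protein-coding genes of GENCODE release 44 (those with at least 1 coding transcript). They were chosen by name, for their place in the complex and not for a measured value, though earlier results of these data were known. Every peak over an annotated gene or within 10 kb to either side of it was taken.

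Binding was profiled by CUT&Tag in SNU638, an established gastric cancer cell line grown in standard medium with serum and with no treatment or genetic change named in the labels. In CUT&Tag, a Tn5 transposase fused to protein A is brought to the antibody and cuts adapters into the DNA nearby. There was 1 library each for anti-BRG1, anti-ACTL6A and anti-NRF2 and 2 for IgG, called IgG 1 and IgG 2 here. All 5 libraries came from the same line, about 100000 cells were taken for each, and no antibody was replicated, so differences between libraries could not be set against replicate error and no p-value is given.

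SWI/SNF complexes use the energy of ATP to slide or eject nucleosomes and so open promoters and enhancers. BRG1 (the product of SMARCA4) is one of the alternative ATPases, and ACTL6A is an actin-related subunit that sits on the ATPase in all forms. ARID1A or ARID1B anchors the BAF form and is joined by the histone reader DPF2, ARID2 takes that place in PBAF, and ncBAF lacks an ARID subunit and is built around BRD9 and BICRA. ARID1A, PBRM1 and ARID2 are tumour suppressor genes that are mutated in many cancers, ARID1A in gastric cancer among them. NRF2 is the transcription factor that switches on antioxidant genes through the antioxidant response element (ARE).

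The deposited lists held 48793 peaks for BRG1, 23917 for ACTL6A, 9045 for NRF2, 11 for IgG 1 and 1746 for IgG 2. Read depth is not in the lists, but the number of fragments at each summit could be recovered from the peak caller's fold enrichment and p-value, and the median peak had 10 fragments for BRG1, 6 for ACTL6A and 17 for NRF2. The weakest peaks called had 3, 3 and 8 fragments, so a gene without a peak in a list may still have carried signal below these levels. No fold enrichment or fragment number was compared between libraries, and a peak's place in its own list is given as a rank percent, in which low values mark the strongest peaks. Among cell type markers, BRG1 peaks at start sites lay at 6 of 7 epithelial genes (not at CLDN4) and 0 of 3 blood genes. They also lay at 1 of 3 fibroblast and endothelial genes (COL1A1), and at 63.5% of all genes. Peaks at a start site do not measure expression, so these counts cannot settle the cell type label.

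All 10 subunit genes had a BRG1 peak at a transcriptional start site (TSS), counted when a peak came as near as 1 kb to the first base of a coding transcript, as did 63.5% of all genes. NRF2 peaks lay at a TSS of 7 genes (28.1% of all genes), namely ARID1A, ARID1B, DPF2, PBRM1, BRD9, BICRA and SS18. ACTL6A peaks lay at a TSS of 5 genes (38.5% of all genes), ARID1A, ARID2, PBRM1, BRD9 and SS18. A gene counted if any of its coding start sites was near a peak, and more start sites give more places for a peak. The 10 genes had between 3 such sites (BRD9 and BICRA) and 17 (ARID1B). With 10 genes and 1 library per antibody, these counts are descriptions of the genes and set nothing apart from other genes. At ARID1A, PBRM1, BRD9 and SS18 a BRG1 peak overlapped both an ACTL6A and an NRF2 peak at a TSS, 4 of 10 genes against 21% of all genes. BRG1 overlapped ACTL6A at a TSS of 5 genes (34.9% of all genes) and NRF2 at a TSS of 7 genes (27% of all genes). By form, the BRG1 peaks reached a TSS of 3 of 3 BAF, 4 of 4 PBAF and 2 of 2 ncBAF genes and of SS18. The NRF2 peaks reached 3 of 3 BAF, 1 of 4 PBAF and 2 of 2 ncBAF genes and SS18. With a limit of 3 kb in place of 1 kb, ARID2 of PBAF was also counted for NRF2. The ACTL6A peaks reached 1 of 3 BAF, 2 of 4 PBAF and 1 of 2 ncBAF genes and SS18. Other genes also start near these promoters. GNL3 starts within 1 kb of a TSS of PBRM1 and TRIP13 of BRD9, and the other starts this close are those of 10 lncRNA genes. They are ENSG00000260063 and ENSG00000290006 at ARID1A, ENSG00000270487 and ENSG00000271551 at ARID1B, ENSG00000289229 at ARID2, ENSG00000261393 at BRD7, ENSG00000227704 and ENSG00000232640 at PHF10, and ENSG00000268746 and ENSG00000277383 at BICRA. A peak between such starts cannot be assigned to 1 of the genes. Neither IgG 1 nor IgG 2 had a peak at a TSS of these genes (0% and 0.152% of all genes), and 0 of the antibody peaks over the 10 genes shared a base with an IgG peak or came within 1 kb of one.

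Counting every peak over the genes and 10 kb to each side, there were 63 BRG1, 21 ACTL6A and 16 NRF2 peaks. All 10 genes held a BRG1 peak in this window (82.7% of all genes) and 9 held an ACTL6A peak (66.9%). NRF2 peaks also lay over 9 genes (41.1%), and BRD7 was the gene without an ACTL6A or an NRF2 peak. IgG 1 and IgG 2 had 0 peaks over these genes (0.0356% and 1.67% of all genes). The windows were long, with a median of 102 kb against 47.3 kb over all genes, and the number of peaks is read beside that length. The median gene of the group had 4.5 BRG1, 2 ACTL6A and 1.5 NRF2 peaks, against 2, 1 and 0 over all genes. Per 100 kb the medians were 5.59, 1.49 and 1.67 peaks against 3.62, 1.46 and 0. ARID1B had the most BRG1 peaks of the group, 18 over 455 kb, which came to 3.96 per 100 kb. DPF2, with 4 BRG1 peaks over 40.4 kb, had the densest window at 9.90 per 100 kb, followed by BRD9 at 9.60 and ARID1A at 9.19.

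**Figure D1:**
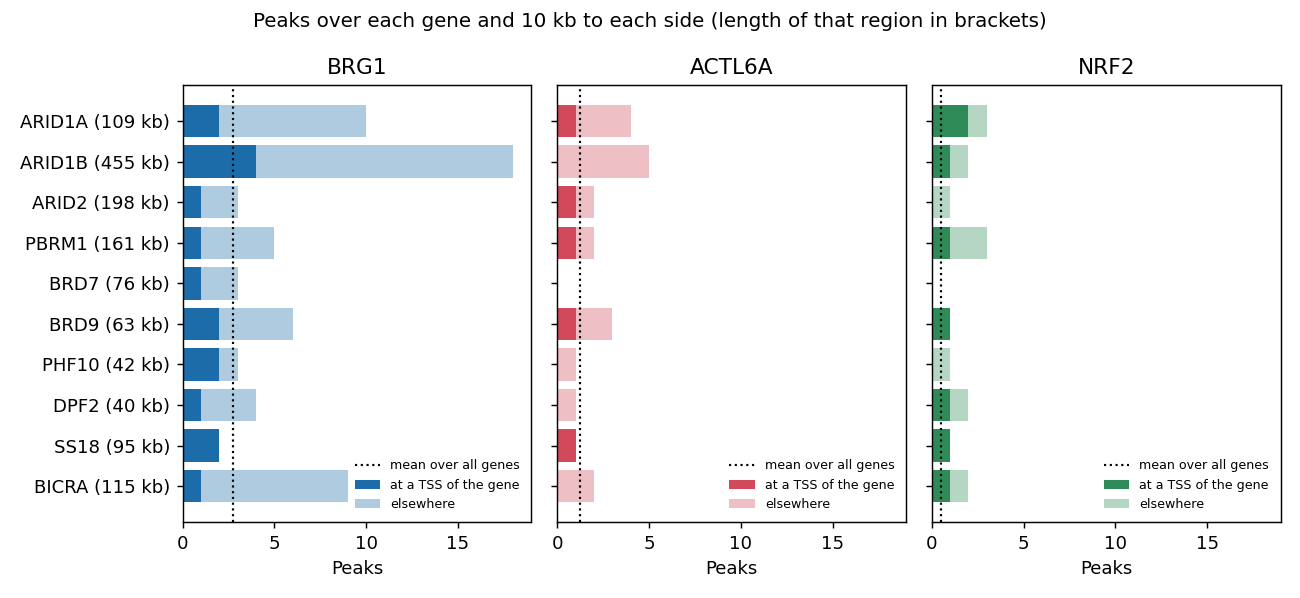
Number of peaks over each gene and 10 kb to each side in the BRG1, ACTL6A and NRF2 lists, split into peaks at a TSS of the gene and peaks elsewhere. The dotted line is the mean over all 19689 genes (2.77, 1.23 and 0.528 peaks), and ARID1B with 18 BRG1 peaks and the empty ACTL6A and NRF2 panels of BRD7 are the extremes.

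The region upstream of ARID2 and that upstream of BICRA held the BRG1 peaks with the most fragments, and 3 sequences from them are shown because the results turn on them. The ARID2 site (chr12:45728894-45729093, GRCh38, plus strand) is the 200 bp centred on the BRG1 summit at the TSS, which lay 712 bp upstream of the start of ARID2. The companion site 1926 bp upstream (chr12:45727680-45727879, plus strand) lies at the start of the lncRNA LINC00938, on the opposite strand. The BICRA site (chr19:47600276-47600475, plus strand) lies 8758 bp upstream of the start of BICRA and in no annotated transcript. Capitals mark GGGCGG (the SP/KLF motif) on either strand and, in BICRA, CCAAT.
ARID2 at the TSS: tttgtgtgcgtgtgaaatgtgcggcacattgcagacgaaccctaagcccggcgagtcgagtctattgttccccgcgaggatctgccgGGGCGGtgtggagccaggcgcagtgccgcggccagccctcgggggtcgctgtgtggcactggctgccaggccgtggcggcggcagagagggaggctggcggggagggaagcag
ARID2 upstream: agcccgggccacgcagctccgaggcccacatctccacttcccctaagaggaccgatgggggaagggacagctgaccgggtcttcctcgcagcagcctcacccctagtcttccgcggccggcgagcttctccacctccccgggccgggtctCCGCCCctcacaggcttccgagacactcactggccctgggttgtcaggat
BICRA upstream: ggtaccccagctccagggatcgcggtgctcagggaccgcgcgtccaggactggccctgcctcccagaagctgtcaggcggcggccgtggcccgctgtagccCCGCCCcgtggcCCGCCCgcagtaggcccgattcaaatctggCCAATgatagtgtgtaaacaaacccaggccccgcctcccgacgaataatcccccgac
GC made up 68.5%, 68% and 68% of the bases of these 3 windows.

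ARID1A encodes a DNA-binding ARID subunit of BAF, and the gene had 2 promoter sites, both bound by BRG1 and NRF2. The first lay 2906 bp upstream of the reference start (the MANE Select transcript, as for every gene here except PBRM1), 127 bp upstream of the nearest alternative start. There the BRG1 summit had 22 fragments, with 2.76 expected by the caller, the ACTL6A summit had 7 with 0.576 expected and the NRF2 summit had 43 with 7.95 expected. BRG1 and ACTL6A summits were 3 bp apart and the NRF2 summit lay 73 bp from that of BRG1. At the second site, 282 bp upstream of the reference start, BRG1 had 19 fragments and NRF2 37, their summits lay 6 bp apart, and the ACTL6A list had no peak. With rank percents of 12.8 and 22.4, these were the 2 highest NRF2 peaks of the whole group. ARID1A was also the gene with the highest NRF2 fragment number at a TSS, 43 (exact Poisson 95% interval 31.1 to 57.9). The next gene, ARID1B, had 16 (9.15 to 25.98), but with 1.99 expected against 7.95 at ARID1A. The caller's fold enrichment at ARID1A was 4.91, below 5.69 at ARID1B and 5.42 at SS18. It was above the folds of the other genes with an NRF2 peak at a TSS, which ran from 3.33 (BRD9) to 4.56 (PBRM1).

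Inside ARID1A, 27.7 kb downstream of the start in intron 1, a BRG1 peak of 15 fragments and an ACTL6A peak of 8 fragments had summits 22 bp apart. The expected numbers were 0.658 and 0.299, and no NRF2 peak lay there. The window (chr1:26723658-26723855, plus strand) is shown because it holds the ARE core TGACNNNGC, here on the minus strand and 56 bp from the BRG1 summit. Capitals mark this match, the CCAAT next to it and a GGGCGG.
ARID1A intron 1: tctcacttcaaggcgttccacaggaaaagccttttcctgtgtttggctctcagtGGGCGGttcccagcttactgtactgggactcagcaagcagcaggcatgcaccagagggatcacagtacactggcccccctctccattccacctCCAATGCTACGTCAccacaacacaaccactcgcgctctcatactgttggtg
Within exon 20, the last coding exon of ARID1A, BRG1 and ACTL6A peaks of 4 fragments each had summits 11 bp apart. In all, ARID1A had 10 BRG1, 4 ACTL6A and 3 NRF2 peaks. The one set of these beyond the 3′ end of ARID1A, with 18, 5 and 14 fragments, lay at the start of the neighbouring gene PIGV.

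ARID1B, the alternative to ARID1A in BAF, is the longest gene of the group, and its peaks were spread along it. Near its reference start the peaks were closer to lncRNA starts. A BRG1 peak of 7 fragments lay 1000 bp downstream of the reference start at rank percent 91.2, and one of 17 fragments lay 3183 bp downstream, 1097 bp from the nearest start site, and reached the TSS class through its edge. The first summit lay 437 bp from the nearest ARID1B start but 44 bp from that of ENSG00000271551, and the second lay 106 bp from that of ENSG00000270487. NRF2 was instead found at an internal start in intron 4, about 244 kb into the gene. There 2 BRG1 peaks of 14 and 13 fragments flanked an NRF2 summit of 16 fragments at distances of 383 and 325 bp. The first of these BRG1 peaks and the NRF2 peak shared an ARE core, TGACACAGC at chr6:157021801-157021809 on the plus strand, 105 bp from the NRF2 summit. ACTL6A had no peak at a TSS of ARID1B but 5 peaks inside the gene, with 3 to 6 fragments.

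The strongest BRG1 peak of ARID1B lay 176 kb into the gene, also in intron 4, with 20 fragments and 0.798 expected. An ACTL6A peak of 5 fragments lay there, its summit 32 bp away, and no NRF2 peak. Its window (chr6:156953661-156953844, plus strand) had a GC content of 45.1% and is shown for comparison with the GC-rich promoter sites, with capitals on an ARE core and on CCAAT read from the minus strand.
ARID1B intron 4: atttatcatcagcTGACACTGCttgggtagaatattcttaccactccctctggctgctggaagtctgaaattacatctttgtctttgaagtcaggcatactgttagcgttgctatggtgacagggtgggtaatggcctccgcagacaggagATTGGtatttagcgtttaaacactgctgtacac
Of the other 17 BRG1 peaks of ARID1B, 12 had 3 to 6 fragments, close to the least the caller accepted.

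DPF2, a reader of acetylated and crotonylated histones, had a single BRG1 peak at its promoter, with its summit 1 bp downstream of the reference start. It had 22 fragments (1.52 expected) and a rank percent of 18.5. An NRF2 peak of 14 fragments overlapped it with its summit 207 bp further in, at rank percent 69.7, and ACTL6A had no peak at this start. The 97 bp just before the start (chr11:65333753-65333849, plus strand) lie in the BRG1 peak and are shown because DPF2 was the one gene of the group whose BRG1 peaks at a TSS held NRF1 and YY1 motifs. Capitals mark 2 copies of the NRF1 motif, read from the minus strand. The RefSeq promoter of DPF2, which lies in the same peak, holds 3 copies, so 1 copy and the YY1 match lie outside this stretch.
DPF2 promoter: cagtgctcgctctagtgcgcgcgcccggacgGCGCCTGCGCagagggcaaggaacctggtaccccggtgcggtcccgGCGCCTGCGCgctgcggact
The strongest peaks in the DPF2 window were not at DPF2. A BRG1 peak of 46 fragments (rank percent 5.18) and an NRF2 peak of 17 fragments lay at the start of TIGD3, beyond the 3′ end of DPF2.

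**Figure D2:**
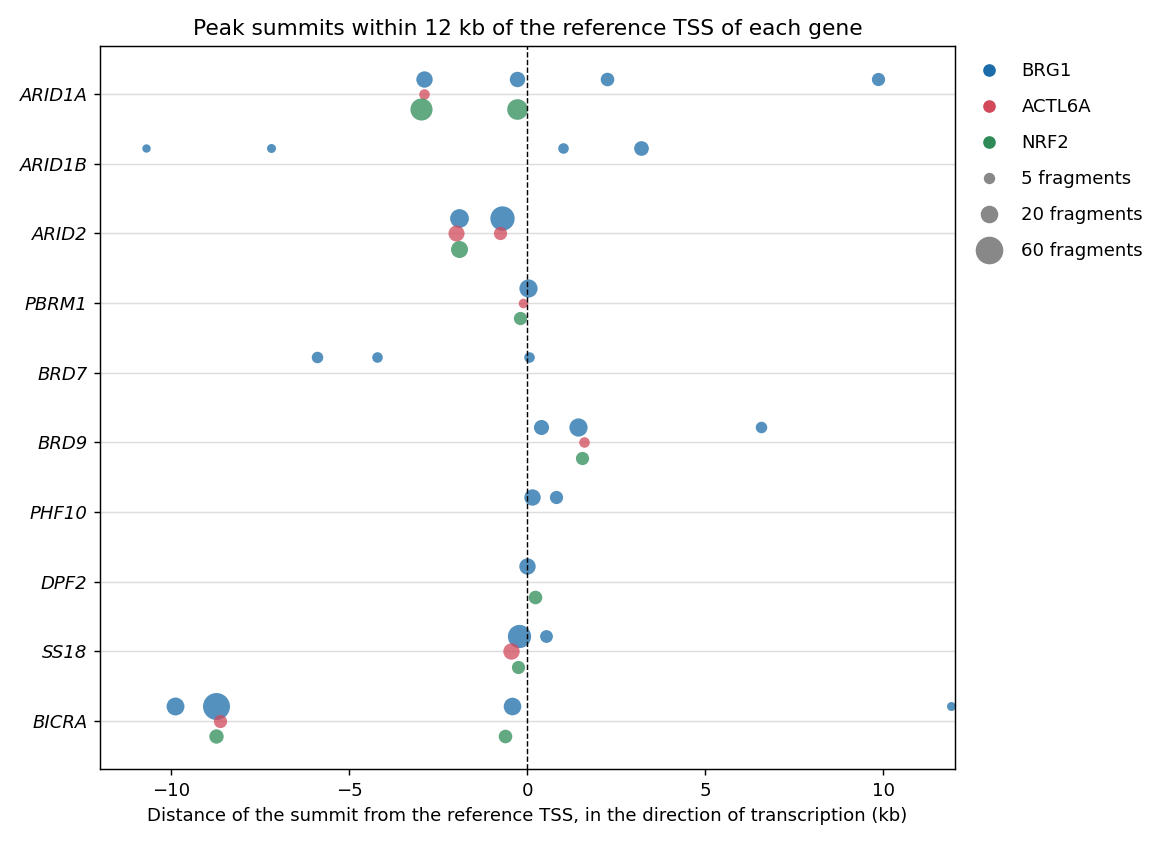
Summits of BRG1, ACTL6A and NRF2 peaks within 12 kb of the reference start of each gene, plotted by distance in the direction of transcription, with the area of each point growing with the fragments at the summit. BRG1 is found at every gene, the largest points are ARID2 at 712 bp and BICRA at 8758 bp upstream, and ARID1B, BRD7 and PHF10 show BRG1 alone in this range.

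ARID2, the ARID subunit of PBAF, had the highest BRG1 fragment number at a TSS, 53 (39.7 to 69.3) with 3.33 expected, and a rank percent of 3.64. This is the first of the printed sites, and its summit lay nearer, at 230 bp, to the start of the lncRNA ENSG00000289229 on the opposite strand. ACTL6A had 13 fragments there with 1.17 expected, its summit 54 bp from that of BRG1, and NRF2 had no peak. At the companion site by LINC00938, BRG1 had 30 fragments, ACTL6A 21 and NRF2 24. The BRG1 and NRF2 summits fell on the same base (a distance of 0 bp), and the ACTL6A summit was 70 bp away. The stronger BRG1 site of the pair thus lacked an NRF2 peak while the weaker one had it. The ACTL6A list ordered the sites the other way, with rank percents of 4.86 at LINC00938 and 19.4 nearer ARID2. The counting intervals of the sites overlapped in both lists. In the same order of sites, they were 13.0 to 32.1 and 6.92 to 22.2 for ACTL6A, and 20.2 to 42.8 and 39.7 to 69.3 for BRG1. Neither BRG1 summit lay closer than 712 bp to the start of ARID2, and with a limit of 250 bp in place of 1 kb ARID2 lost its BRG1 and ACTL6A peaks at a TSS. Over the rest of the gene the lists held 1 peak, of BRG1, with 3 fragments in intron 20.

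PBRM1 encodes the polybromo subunit BAF180 and shares a bidirectional promoter with GNL3, whose start lies 92 bp away on the other strand. Here the Ensembl canonical transcript served as reference. The BRG1 summit lay 29 bp inside PBRM1 with 28 fragments and 1.37 expected (rank percent 10.2). The ACTL6A summit (5 fragments, 0.374 expected) and the NRF2 summit (13 fragments, 2.07 expected) lay 117 and 213 bp upstream, on the GNL3 side. Which of the paired genes the signal belongs to cannot be told apart. The 66 bp next to the most upstream start of PBRM1 (chr3:52685918-52685983, plus strand) lie in the BRG1 peak and are shown as the larger part of the gap to that GNL3 start. Another coding transcript of GNL3 starts inside PBRM1 and runs across the promoter. They hold none of the motifs searched and so no capitals.
PBRM1 and GNL3 gap: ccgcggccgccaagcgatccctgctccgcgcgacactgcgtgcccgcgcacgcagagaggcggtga
A second site with all 3 antibodies lay 15.1 kb into PBRM1 in intron 3, with 38 BRG1, 7 ACTL6A and 11 NRF2 fragments. This was a stronger BRG1 peak than the one at the promoter, with a rank percent of 6.14. An AP-1 motif, TGAGTCA at chr3:52671026-52671032, lay in all 3 peaks, 25 bp from the NRF2 summit and 235 bp from that of BRG1. Another TGAGTCA lay under the summit (0 bp) of a BRG1 peak of 9 fragments in intron 18. The highest BRG1 peak of the PBRM1 window, with 51 fragments, was at the start of the neighbour UQCC5.

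BRD7, a bromodomain subunit of PBAF, had the weakest promoter of the group. Its BRG1 peak, 43 bp inside the gene in the 5′ UTR, had 7 fragments (2.81 to 14.4) with 0.896 expected, and its rank percent was 74.0. This interval lies below those of ARID2 (39.7 to 69.3), SS18 (35.4 to 63.6), PBRM1 and BRD9 (18.6 to 40.5 each) and BICRA (17.0 to 38.1). It overlaps those of ARID1A, DPF2 and PHF10 (13.8 to 33.3 each) and of ARID1B (9.90 to 27.2). The other BRG1 peaks of BRD7 lay 4236 and 5916 bp upstream with 7 and 9 fragments, and with a -log10 q of at least 5 the promoter peak was lost. The 200 bp at its summit held 84.5% GC, the highest of the 17 BRG1 peaks at a TSS.

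PHF10, the PHD finger subunit BAF45a of PBAF, also had BRG1 alone at its promoter, in 2 peaks. One lay 131 bp inside the gene with 22 fragments and 1.51 expected, and one lay 811 bp inside with 13. The first had a rank percent of 18.4, nearly the same as BICRA (18.4) and DPF2 (18.5), yet PHF10 had neither an ACTL6A nor an NRF2 peak there, while BICRA and DPF2 had NRF2. The site with all 3 antibodies in the PHF10 window (28 BRG1, 7 ACTL6A and 20 NRF2 fragments) lay beyond its 3′ end at the divergent start of C6orf120 and WDR27.

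BRD9, the bromodomain subunit that defines ncBAF, had its main peaks not at its reference start but 1.41 to 1.59 kb inside the gene, near an alternative start. BRG1 had 28 fragments there (2.55 expected), ACTL6A 7 (0.584 expected) and NRF2 13 (3.21 expected). The ACTL6A and NRF2 summits were 45 bp apart and lay in coding exon 3, and the BRG1 summit lay 134 bp from that of NRF2, in intron 2. The 3 peaks shared 1 ARE core, TGACTCTGC at chr5:891295-891303 on the minus strand, 44 bp from the NRF2 summit, 89 bp from that of ACTL6A and 90 bp from that of BRG1. It was the only ARE core within 100 bp of a BRG1 summit at a TSS of these genes. The reference start lies 83 bp from the start of TRIP13 on the other strand, and near it there was a BRG1 peak of 18 fragments alone. Its summit lay 374 bp inside BRD9, 119 bp from the nearest BRD9 start and 457 bp from that of TRIP13. The NRF2 peak ranked low in its list, at 92.8%.

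BICRA, also called GLTSCR1, is the scaffold subunit of ncBAF, and the nearest peaks upstream of its start were of BRG1 (26 fragments, 2.37 expected) at 423 bp and of NRF2 (14 fragments, 3.18 expected) at 636 bp, with no ACTL6A peak. This BRG1 summit lay 30 bp from the start of the lncRNA ENSG00000277383, on the opposite strand, and inside ENSG00000268746. The far upstream site printed above was much the stronger. It had 66 BRG1 fragments (51.0 to 84.0) with 4.17 expected, the highest number at any BRG1 peak over the 10 genes, and stood at place 997 of the 48793 BRG1 peaks (rank percent 2.04). ACTL6A had 13 fragments at it (0.861 expected) and NRF2 16 (2.11 expected). The NRF2 summit was 15 bp and the ACTL6A summit 131 bp from that of BRG1. A further BRG1 peak of 27 fragments lay 9895 bp upstream with no other antibody. With no flank around the gene, neither site would have been counted for BICRA.

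SS18, the subunit shared by BAF and ncBAF and the fusion partner in synovial sarcoma, had the strongest promoter of the group by rank in both the BRG1 and the ACTL6A list. BRG1 had 48 fragments with 1.99 expected (rank percent 2.79) and ACTL6A 22 with 1.00 expected (rank percent 3.43). NRF2 had 13 fragments with 1.58 expected, in the middle of its list at 47.8%. The summits lay 223, 452 and 258 bp upstream of the reference start, among alternative first exons. BRG1 and NRF2 summits were 35 bp apart, and the ACTL6A summit was 229 bp from that of BRG1. A weaker BRG1 peak of 12 fragments lay 518 bp inside the gene. The lists held no further peak in the window of SS18, so all its peaks were at the promoter, whereas the other 9 genes had between 1 and 14 BRG1 peaks away from their start sites.

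**Figure D3:**
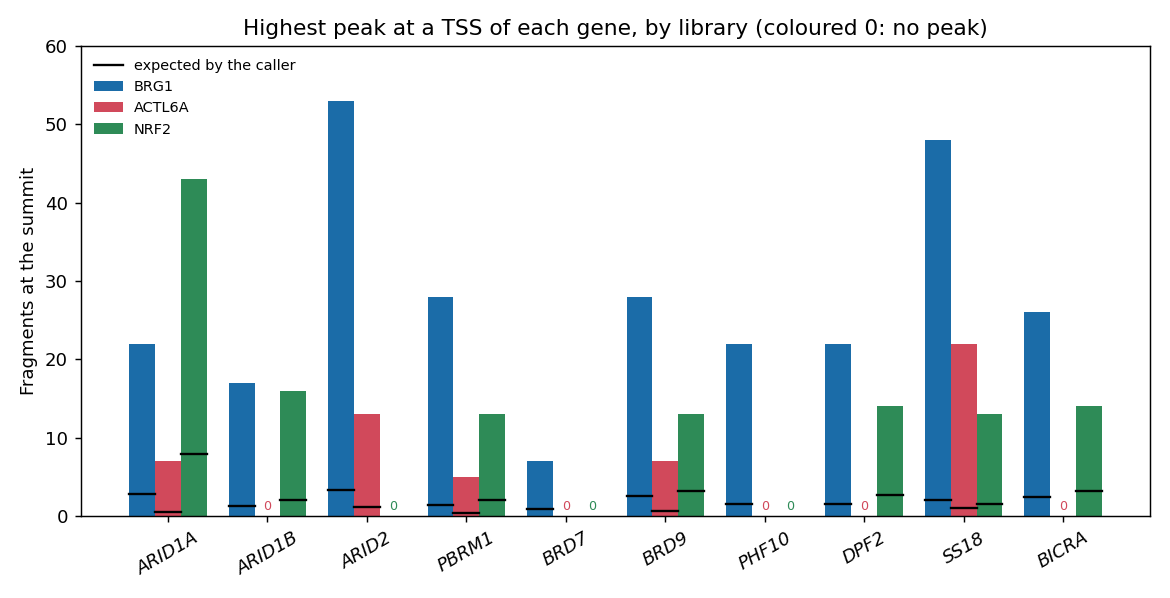
Fragments at the summit of the highest peak at a TSS of each gene in the BRG1, ACTL6A and NRF2 libraries, with a black line at the number the caller expected and a coloured 0 where the list has no peak. ARID2 (53) and SS18 (48) lead for BRG1, SS18 (22) for ACTL6A and ARID1A (43) for NRF2, and bar heights are not comparable between libraries of different depth.

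The order of the genes thus differed from list to list. By the rank percent of the highest peak at a TSS, the BRG1 order ran SS18 (2.79), ARID2 (3.64), PBRM1 (10.2), BRD9 (16.8), PHF10 (18.4), BICRA (18.4), DPF2 (18.5), ARID1B (26.9), ARID1A (28.6) and BRD7 (74.0). Counting intervals of neighbours in this order overlapped, as with SS18 and ARID2 or ARID1A and BRD7. For ACTL6A it ran SS18 (3.43), ARID2 (19.4), ARID1A (43.9), BRD9 (44.3) and PBRM1 (64.0), and the 5 to 7 fragments of the last 3 could not separate them. For NRF2 it ran ARID1A (12.8), ARID1B (36.2), SS18 (47.8), PBRM1 (61.9), DPF2 (69.7), BICRA (82.4) and BRD9 (92.8), with 13 to 16 fragments at all but ARID1A. Over all genes with such a peak the median rank percent was 18.8 for BRG1, 20.7 for ACTL6A and 41.8 for NRF2, and over the members with one it was 18.4, 43.9 and 61.9. The BRG1 median was thus close to that of promoters in general, while the ACTL6A and NRF2 medians of these few genes sat lower in their lists.

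Of the 63 BRG1 peaks, 14 overlapped an ACTL6A peak and 16 an NRF2 peak, and 9 overlapped both. The shares were 22.2% and 25.4%, against 24.1% and 13.3% of all BRG1 peaks. The 42 BRG1 peaks without either had a median of 7 fragments (3 to 27), against 18 (4 to 53) for the 5 with ACTL6A only, 22 (13 to 51) for the 7 with NRF2 only and 28 (18 to 66) for the 9 with both. Among BRG1 peaks with 3 to 9 fragments, 1 of 28 overlapped ACTL6A and 0 of 28 NRF2, where 7.69% and 2.30% of all such BRG1 peaks did. Among those with 10 to 19 fragments, 3 of 19 overlapped ACTL6A and 4 of 19 NRF2, where the whole list had 23.4% and 10.5%. Among those with 20 fragments or more, 10 of 16 overlapped ACTL6A and 12 of 16 NRF2, where the whole list had 57.7% and 38.7%. Peaks with fewer fragments in 1 list are also nearer to the lowest number that the caller accepted, and the part of that in the overlap was not tested.

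**Figure D4:**
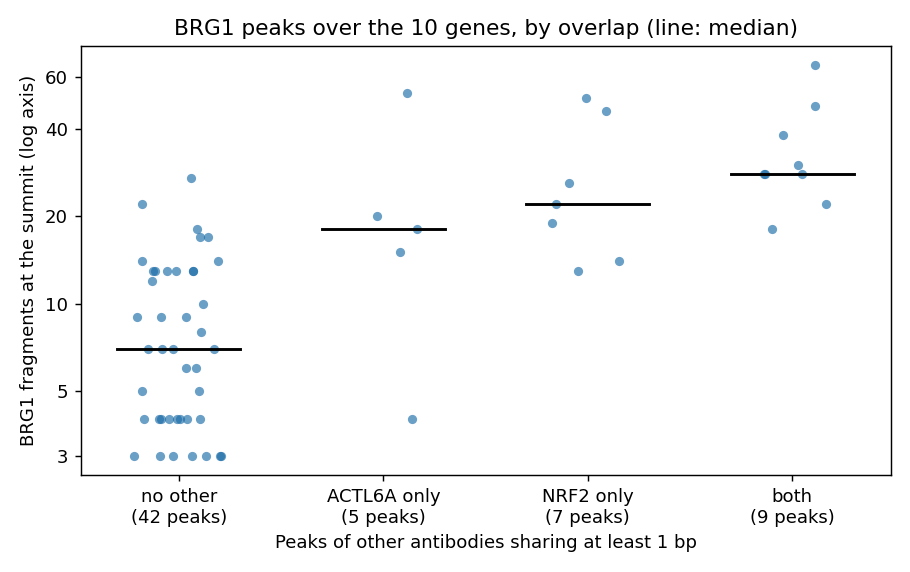
Fragments at the summit (log axis) of each of the 63 BRG1 peaks over the 10 genes, grouped by whether the peak shares at least 1 bp with an ACTL6A peak, an NRF2 peak, both or neither, with points spread sideways for visibility and a line at the median. The medians are 7, 18, 22 and 28 fragments, and peaks with no other antibody reach down to 3.

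Seen from the other lists, 14 of 21 ACTL6A peaks over the genes overlapped a BRG1 peak (66.7%, Wilson 95% interval 45.4% to 82.8%, for counting error only), and 49.8% of all ACTL6A peaks did. For NRF2 it was 15 of 16 peaks (93.8%, 71.7% to 98.9%), against 66.2% of all NRF2 peaks. The exception was an NRF2 peak of 10 fragments in intron 1 of ARID1B, 45.6 kb into the gene. Of these 16 NRF2 peaks, 12 lay at a coding TSS of some gene. All 12 overlapped BRG1, as did 94.9% of all NRF2 peaks at a coding TSS. Away from any coding TSS 3 of 4 did, against 34.6% of all. The peak at the start of the lncRNA LINC00938 was among these 4. Of the 7 ACTL6A peaks without BRG1, 4 lay inside ARID1B, 1 in BICRA, 1 beyond DPF2 and 1 beyond BRD9, with 3 to 8 fragments. The lists cannot tell whether these 7 are sites of the SWI/SNF complex. Where BRG1 and ACTL6A peaks overlapped at a TSS of the subunit gene itself, their summits lay a median of 146 bp apart (3 to 229 bp, 5 pairs), and elsewhere, starts of neighbouring genes included, 50 bp (11 to 187 bp, 9 pairs). The median over both whole lists was 65 bp. BRG1 and NRF2 summits at a TSS of the subunit gene were a median of 207 bp apart (6 to 383 bp, 9 pairs).

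Promoter sequences from RefSeq (GRCh38.p14, from 250 bases before each start to 50 after it) were matched for 9 of the 10 genes, as 14 promoters, and not for ARID2. Their median GC content was 70%, against 58.7% over 35093 promoters, and the median ratio of observed to expected CpG was 0.946 against 0.579. Those 35093 promoters belong to 27305 genes, more than the 19689 with a coding transcript. In the 200 bp at BRG1 summits at a TSS the medians were nearer, 71% GC for these genes and 67% over all such peaks. Among the 14 promoters, GC ran from 85.3% at PHF10 to 37.7% at an upstream start of ARID1B. Motifs were searched as letters on both strands. In the 17 whole BRG1 peaks at a TSS of these genes the SP/KLF motif GGGCGG was found in 15, at least 1 for each gene, and in 70.8% of all 15165 BRG1 peaks at a TSS. CCAAT was found in 9 of the 17 peaks (35.2% of all) and the ETS motif CCGGAAG in 1, at BRD7 (17.7% of all). The NRF1 motif (9.83% of all) and the YY1 motif AANATGGCG (5.84% of all) were each found in 1, at DPF2. The ARE core TGACNNNGC was found in 2 peaks, at ARID1B and BRD9 (21.0% of all), and the AP-1 motif TGANTCA, which can overlap the ARE core, in 0 (8.43% of all). Of the 14 RefSeq promoters 0 held an ARE core, which 13.4% of all promoters held. These matches describe the letters under the peaks and are not shown to be bound. For peaks away from a TSS no share over all peaks was counted. The ARE and AP-1 matches described in introns therefore have no background beside them. ARE cores also lay in other BRG1 peaks away from a TSS, at ARID1B, BRD7 and DPF2.

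Among 19 other SWI/SNF subunit genes, 18 had a BRG1 peak at a TSS (63.5% of all genes). ACTL6B, the neuronal counterpart of ACTL6A, did not. ACTL6A peaks lay at 11 of the 19 (38.5% of all genes) and NRF2 peaks at 7 (28.1%), and 5 had overlapping peaks of all 3 (21%). For likeness, a gene without a peak at a TSS in a list was given the rank percent 100, so that the medians of the 10 genes were 82.0 for ACTL6A, 18.4 for BRG1 and 76.1 for NRF2. The other subunits closest to these were BCL7C, SMARCD1 and SMARCE1, with summed differences over the 3 lists of 35.9, 45.2 and 46.3 percentage points. BCL7C had no ACTL6A peak, SMARCD1 no NRF2 peak and SMARCE1 neither at a TSS, and the likeness rests in part on these missing peaks.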

How the data were processed

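Peak lists of 5 CUT&Tag libraries of SNU638 cells were analysed (150 bp paired-end reads, 14 PCR cycles, per the labels). The submitters' processing notes name fastp 0.23.0, FastQC, BWA, MACS2, deepTools, HOMER 4.11 and the build hg38, and peaks were called at a q-value below 0.05 according to the study's methods. The control given to the caller is not given in the sources used here. The deposited fold enrichment is the ratio of observed to expected fragments at a summit, the deposited -log10 p and q-values are the caller's, and the deposited score follows the q-value.

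Positions were read on GRCh38 (0 peaks passed a chromosome end) and set against GENCODE release 44. Peaks were ranked in their own list by -log10 q. Overlap meant at least 1 bp. The number of fragments was the whole number giving both the fold enrichment (pseudocount 1) and the Poisson p-value within 0.001 in -log10, found for 97.8% to 100% of the peaks of a list. Intervals (Wilson, exact Poisson, 95%) cover counting error only, and PCR copies were not marked in the lists. On simulated data, 100% of 2674 fragment numbers, 615 of 615 overlaps and 500 of 500 planted motifs were found.

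The 10 members and the other lists of genes were chosen with earlier results of these data known. Named were the members with their highest peaks at and away from a TSS, genes starting within 1 kb of a member start, and 3 other subunits nearest in rank along with those lacking BRG1 at a TSS. Genes at other peaks in the flanks (PIGV, UQCC5, TIGD3, C6orf120, WDR27 and LINC00938) and the peaks described besides the highest were chosen after their values were seen, as was the fragment measure with its intervals. The alternatives took peaks with -log10 q from 5 upward, only 5000 peaks of each list, other TSS distances, flanks and overlaps, peaks shared with IgG left out, and other forms of the ARE. Software was samtools 1.23.1 and Python 3.11.15 with pandas 2.3.3, matplotlib 3.10.9, SciPy 1.17.1, pysam 0.24.0 and NumPy 2.4.6.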

Additional observations from a re-analysis of the deposited data

How the results depend on the processing

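Of 65 alternative values for 15 results, 37 stayed within 1.5 times the reported count or within the interval of the share, and 28 moved. Among the 37 are the counts with peaks shared with IgG left out. These could not move, because none of the antibody peaks over the genes shared a base with an IgG peak. With only peaks whose -log10 q reached 5, the genes with an ACTL6A peak at a TSS fell from 5 to 2 (ARID2 and SS18) and with NRF2 from 7 to 3 (ARID1A, ARID1B and SS18). The BRG1 count moved only to 9, without BRD7. Peaks over the genes fell to 5 for ACTL6A, 32 for BRG1 and 7 for NRF2, the other subunit genes with ACTL6A to 5, the genes with all 3 to 1, and the shares overlapping BRG1 rose to 100% for both ACTL6A and NRF2. With the highest 5000 peaks of each list the genes at a TSS numbered 2 for ACTL6A, 3 for BRG1 and 3 for NRF2, the peaks 5, 7 and 7, and the other subunits 2 for ACTL6A and 6 for BRG1. These settings keep fewer peaks by construction.

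With 1 reference start per gene ACTL6A was at 3 genes, without ARID1A and BRD9. NRF2 was then at 5, without ARID1B and BRD9, and BRG1 stayed at 10. Without the flank there were 12 ACTL6A and 10 NRF2 peaks, and with 50 kb 38 ACTL6A and 99 BRG1 peaks. Where peaks had to share 50% of each other's length, the shares on BRG1 fell to 38.1% for ACTL6A and 56.2% for NRF2, and the genes with all 3 to 1. The genes with an ARE core in a BRG1 peak at a TSS (2) became 1 in 200 bp at the summit, 7 with TGANNNNGC and 0 with a purine before the core. Without either IgG library in turn, the antibody peaks shared with IgG stayed at 0, the lowest and highest value. This was fixed in advance, since the count was already 0 with both libraries. No paired analysis was possible because only IgG had a second library. The limits are the single library per antibody, the few fragments behind most ACTL6A peaks, and flanks that reach into other genes.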

Other observations

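Some of the strongest peaks in the windows of these genes lay at the starts of their neighbours. UQCC5, beyond PBRM1, had 51 BRG1 and 20 NRF2 fragments with summits 581 bp apart and no ACTL6A peak. TIGD3, beyond DPF2, had 46 BRG1 and 17 NRF2 fragments with summits 28 bp apart. PIGV, beyond ARID1A, had BRG1, ACTL6A and NRF2 peaks of 18, 5 and 14 fragments, and C6orf120 and WDR27, beyond PHF10, had 28, 7 and 20. Over the whole group, 5 BRG1, 2 ACTL6A and 4 NRF2 peaks lay at a coding TSS of another gene and not of a member. Their median fragments were 28, 6 and 18.5, against 19, 7 and 14 at the members' own start sites. Starts shared with a neighbour, as at PBRM1 and BRD9, were counted as the members' own. The site at the lncRNA LINC00938 was counted in neither class. The BRG1 peaks in introns, 27 in 6 genes, had a median of 6 fragments, and 1 of them, in PBRM1 with 38, stood well above the rest.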
